A study of Oryza sativa with 3 samples.

Results

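Fragments of tRNA-His, the transfer RNA that carries histidine, were examined in spores of rice (Oryza sativa, cultivar Guichao No.2). The members are all listed sequences with the anticodon label GTG, which number 877 of the 18424 distinct tRNA fragment sequences of the 3 lists together. The list of uninucleate microspores (UNM) holds 235 of them, that of bicellular pollen (BCP) 750 and that of tricellular pollen (TCP) 437. The plants were grown in the field with no treatment named, and spores of the 3 stages were separated on sucrose gradients. The groups differ by stage and, per the labels, by the size range of the small RNAs, 13 to 40 nt in UNM and 13 to 41 nt in BCP and TCP. There is 1 library per stage, and whether the spores of a stage were pooled from several plants is not stated in the labels. The lists hold tRNA fragments alone, so the stages were not checked against marker genes. UNM had 686685 listed reads, of which 7361 were tRNA-His, and BCP had 4958412, of which 374317 were. The numbers listed for TCP were not taken as reads, and TCP enters by presence only. Shares are percentages of all listed tRNA-derived reads of a library unless another base is named, ranges in parentheses are exact 95% intervals that cover counting error only, and no difference between stages has a replicate check.

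A transfer RNA folds into a cloverleaf with an acceptor stem, a D-arm, an anticodon arm and a T-arm, and cleavage in or near the anticodon loop gives long 5′ and 3′ fragments, while cleavage in or near the D-arm gives shorter 5′ fragments. tRNA-His differs from all other tRNAs by an additional guanosine in front of the first base of the acceptor stem, which histidyl-tRNA synthetase uses to recognise it. In bacteria and plastids this G is written in the gene and is left in place when the leader is cut off, whereas in the cytosol of most eukaryotes it is added to the tRNA after transcription. Plant cells hold a nuclear-encoded tRNA-His and a plastid-encoded one, trnH-GUG, and flowering plant mitochondria commonly carry a trnH of plastid origin, so fragments of the latter sequence are called plastid-type below.

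The sequences fell on 2 parents. Chained by overlaps of 13 bases, all 877 were placed at 1 position of 1 parent, 732 without a difference and 145 with 1 or 2 differences, and none carried another anticodon label in another list. Bases are counted here from 1 at the first base of the acceptor stem, and the base before it is -1. The anticodon then lies at bases 35 to 37 of the plastid-type parent and at bases 34 to 36 of the nuclear-type parent, in a loop of 7 bases closed by a stem of 5 pairs. In the RefSeq gene table of rice assembly ASM3414082v1, 10 nuclear genes are annotated as tRNA-His with this anticodon, each 72 bases long, and 1 mitochondrial trnH is 74 bases long. The following plastid-type fragments carried most of the reads of that parent, with the extra G at base -1 and the bases of the anticodon in capitals.
Plastid-type, 20 nt, bases -1 to 19: Ggcggatgtagccaagtgga
Plastid-type, 19 nt, bases 1 to 19: gcggatgtagccaagtgga
Plastid-type, 35 nt, bases -1 to 34: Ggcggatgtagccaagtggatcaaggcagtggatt
Plastid-type, 39 nt, bases -1 to 38: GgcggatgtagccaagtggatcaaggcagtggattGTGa
Plastid-type, 16 nt, bases 20 to 35: tcaaggcagtggattG

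The nuclear-type fragments below are those to which the results return, with any base of the anticodon in capitals. They show the 5′ fragments that end around the anticodon, a pair of short 5′ fragments that differ by their last 2 bases, and the fragments that begin behind the anticodon.
Nuclear-type, 31 nt, bases 1 to 31: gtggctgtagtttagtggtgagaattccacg
Nuclear-type, 33 nt, bases 1 to 33: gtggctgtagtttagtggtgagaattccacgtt
Nuclear-type, 34 nt, bases 1 to 34: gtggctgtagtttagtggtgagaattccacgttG
Nuclear-type, 16 nt, bases 1 to 16: gtggctgtagtttagt
Nuclear-type, 14 nt, bases 1 to 14: gtggctgtagttta
Nuclear-type, 15 nt, bases 39 to 53: cgtggagacctgggc
Nuclear-type, 14 nt, bases 40 to 53: gtggagacctgggc
Nuclear-type, 13 nt, bases 41 to 53: tggagacctgggc

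Fragments of both parents held larger shares in BCP than in UNM, the nuclear type by the larger factor, and the leading parent changed. Nuclear-type fragments went from 1859 reads in UNM to 206940 in BCP, or from 0.271% of all listed reads (0.259 to 0.283) to 4.17% (4.16 to 4.19), which is 15.4-fold higher in BCP (14.7 to 16.2). Plastid-type fragments went from 5502 reads to 167377, or from 0.801% to 3.38%, 4.21-fold higher (4.10 to 4.33). The plastid type thus held 74.7% of tRNA-His reads in UNM (73.7 to 75.7) and 44.7% in BCP (44.6 to 44.9). Both together were 7.04-fold higher (6.88 to 7.21). Without the 31-nt fragment of the nuclear type, the most abundant tRNA-His sequence of BCP, the log2 ratio of the nuclear type was 3.50 in place of 3.95. That fragment alone went from 206 reads to 73948, or from 0.0300% of all listed reads to 1.49%. Without it the nuclear type would hold fewer BCP reads than the plastid type, so the change of the leading parent rests on this sequence.

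Grouped by their first 13 bases, the fragments formed 129 families, of which 9 held at least 1% of tRNA-His reads in UNM or BCP. These 9 held 95.4% of tRNA-His reads in UNM and 96.6% in BCP. By at least 2-fold, 7 of them were higher in BCP and 1 was lower, and the last differed by less. Families of the other tRNAs were not counted, so these counts are not read as particular to tRNA-His. The family that starts at base 1 of the nuclear type had 709 UNM reads and 159733 BCP reads, 31.2-fold higher (28.98 to 33.64). It moved from 9.63% to 42.7% of tRNA-His reads. The family that starts at base 2 of the same parent went from 81 reads to 25975, 44.4-fold higher (35.7 to 55.9). The family that starts at the extra G of the plastid type had 4641 UNM reads and 136958 BCP reads, 4.09-fold higher (3.97 to 4.21). It moved from 63.05% to 36.59% of tRNA-His reads. The family that starts at base 20 of the plastid type was 6.24-fold higher (5.578 to 7.001), with 313 and 14101 reads. The families that start behind the nuclear anticodon changed least or fell: those from base 39 and base 40 were 2.21-fold (1.97 to 2.50) and 3.76-fold higher (3.26 to 4.37), a version of the former with an A at base 42 was 1.96-fold higher (1.63 to 2.37), and the family from base 41 went from 198 reads to 45, 31.8-fold lower.

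The extra G was present on most plastid-type 5′ reads, in nearly the same share at both stages. Of the distinct sequences that begin at bases -1 to 3, 21 of 42 in UNM, 34 of 92 in BCP and 37 of 86 in TCP began at the extra G. Among plastid-type fragments that begin at bases -1 to 3, those that begin at the extra G made up 90.8% of reads in UNM and 91.1% in BCP. The difference was 0.315 percentage points. Taken between opposite ends of the exact intervals of the 2 shares, it runs from -0.610 to 1.29. Those that begin 1 base later, at base 1, made up 9.13% and 8.78%. Among fragments of at most 20 nt the extra G was on 91.15% of reads in UNM (90.29 to 91.95) and 90.36% in BCP (90.13 to 90.58), with intervals that overlap. Among those of at least 30 nt it was on 87.4% in UNM (83.9 to 90.3) and 91.7% in BCP (91.5 to 91.9), with intervals that do not. Restricted to 13 to 33 nt, a setting added after the data were seen, the difference was -2.23 percentage points, and without the 20-nt fragment and its 19-nt form, likewise added, it was 6.64. Base 1 was itself numbered from conserved bases at positions 8 to 14, so their spacing is not separate evidence for the extra G. These bases are U at 8, A or G at 9, C or U at 11 and A at 14. Reads too short to hold these bases could not be counted in what follows. In a fragment that begins at the extra G they lie 1 base further from the 5′ end, which follows from the numbering itself. Of all reads in the lists with these bases at that distance, and at none of the distances that a start at positions 1 to 3 gives, plastid-type tRNA-His made up 4637 of 4723 in UNM, 98.2% (97.8 to 98.5), and 136966 of 138445 in BCP, 98.9% (98.88 to 98.99).

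No listed fragment of the nuclear type carried a G at base -1, in any of the 3 lists. The nuclear-type 5′ fragments began at base 1 in 89.5% of reads in UNM and 85.2% in BCP, and at base 2 in 10.2% and 13.9%. Fragments with a T in front of base 1 were listed as 2 sequences in UNM, 10 in BCP and 1 in TCP, together 2 UNM reads and 189 BCP reads, 0.101% of the nuclear-type 5′ reads of BCP. The most abundant of them, of 35 nt, had 0 UNM reads and 56 BCP reads. A G that is added after transcription does not match the gene, and how mismatches were handled in mapping is not known here, so the lists do not show how often the nuclear tRNA-His carried it. Over both parents the extra G started 78.6% of the 5′ reads in UNM and 40.6% in BCP.

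The plastid-type 5′ fragments had a short and a long form, and the balance between them differed between the stages. The 20-nt fragment, which ends at base 19, had 4011 UNM reads and 57014 BCP reads and was the most abundant plastid-type sequence of both libraries, 1.97-fold higher in BCP (1.91 to 2.03). The 35-nt fragment, which ends at base 34 directly before the anticodon, had 174 UNM reads and 37884 BCP reads, 30.2-fold higher (26.0 to 35.2). There were 23.1 reads of the 20-nt fragment for each read of the 35-nt fragment in UNM and 1.505 in BCP. The neighbouring 34-nt and 33-nt fragments with the extra G were 53.2-fold (37 to 79.4) and 55.1-fold higher (35.3 to 91.6), with 29 and 19 reads in UNM and 11133 and 7561 in BCP. The fragments that begin at base 1 gave the same picture: the 19-nt fragment, with 357 and 5695 reads, was 2.21-fold higher (1.985 to 2.465), and the 33-nt fragment, with 3 and 1385 reads, 63.9-fold higher (21.8 to 310.4). The 19-nt fragment that begins at the extra G, with 156 and 2618 reads, was 2.32-fold higher (1.98 to 2.75). All plastid-type 5′ fragments of at most 20 nt together were 2.00-fold higher in BCP (1.94 to 2.06), and those of at least 30 nt 25.15-fold higher (22.92 to 27.65).

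At the longest lengths the lists differ in what they hold, which bears on this parent most. The longest listed sequences are of 40 nt in UNM and of 39 nt in BCP, and the next longest are of 37 nt in both. In BCP the 39-nt class held 28672 reads, of which the 39-nt plastid-type fragment with the extra G had 16548, or 57.7%, while UNM lists no sequence of 39 nt. The 40-nt fragment of UNM, which is the same fragment with 1 more base, had 42 reads. Pooled as fragments of 39 or 40 nt, they were 54.6-fold higher in BCP (40.35 to 75.74). Whether these reads end where the list ends or run on beyond it was not tested. The 36-nt fragment with the extra G had 111 reads in UNM and is not in the BCP list, which makes it 267-fold lower with the 0 set to a floor of 3 reads, and at least 213.7-fold lower by the exact limit, although the neighbouring 35-nt fragment was higher. The 36-nt fragment from base 1 likewise had 22 reads in UNM and none in BCP. The fragments of 34 to 36 nt with the extra G summed to 314 UNM reads and 49017 BCP reads, 21.6-fold higher (19.35 to 24.23). The nuclear-type 36-nt fragment from base 1 is listed in both, with 6 and 718 reads.

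The short plastid-type 5′ fragment met an internal fragment end to end. The 20-nt fragment ends at base 19, and the main internal family begins at base 20, where 5.69% of plastid-type reads began in UNM and 8.42% in BCP. Fragments that begin at base -1 or 1 and end at base 19 had 4368 UNM reads and 62729 BCP reads, against 313 and 14101 that begin at base 20. The most abundant fragments of this family, of 15 to 19 nt, ended at bases 34 to 38, within the anticodon loop. Its 16-nt fragment, which ends at the first base of the anticodon, had 81 UNM reads and 6157 BCP reads, 10.5-fold higher (8.46 to 13.3). The 15-nt fragment had 55 and 820 reads, 2.06-fold higher (1.571 to 2.765), the 18-nt fragment 84 and 2492, 4.11-fold higher (3.305 to 5.169), and the 19-nt fragment 16 and 2309, 19.99-fold higher (12.28 to 35.02). Its 13-nt fragment, with 14 and 107 reads, and a 14-nt fragment from base 24, with 8 and 70, had ratios of 1.06 and 1.21 whose intervals hold 1. Apart from the 36-nt fragment these were the lowest ratios of the plastid type among sequences with at least 50 summed reads. Fragments from the 3′ side of the plastid-type tRNA were nearly missing from the lists: those that begin at or after base 40, the first base of the 3′ strand of the anticodon stem, had 1 read in UNM and 99 in BCP, 0.018% and 0.059% of the plastid-type reads.

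The nuclear-type 5′ fragments were long at both stages, and the balance of their ends at bases 31 and 33 differed. Fragments of at least 30 nt made up 80.2% of the nuclear-type 5′ reads in UNM and 80.4% in BCP, and ends at bases 31 to 34 made up 74.9% and 74.1%. In UNM, ends at base 33, directly before the anticodon, held 31.7% (28.5 to 35.1) and ends at base 31, the last base of the 5′ strand of the anticodon stem, held 27.3% (24.2 to 30.5), with intervals that overlap. In BCP base 31 held 44.6% (44.4 to 44.8) and base 33 held 15.4% (15.3 to 15.6). The 31-nt fragment from base 1 had 206 UNM reads and 73948 BCP reads, 49.7-fold higher (43.4 to 57.3). The 33-nt fragment had 215 and 21765, 14.02-fold higher (12.26 to 16.11), and the 34-nt fragment 81 and 13091, 22.4-fold higher (17.99 to 28.2). The number of reads of the 31-nt fragment for each read of the 33-nt fragment was 0.958 in UNM and 3.40 in BCP. Fragments from base 2 showed this difference as well, with 10 and 9048 reads for the fragment that ends at base 31, 125-fold higher (68.1 to 261), and 35 and 6843 for that which ends at base 33, 27.1-fold higher (19.5 to 38.9). Over all 5′ starts, ends at base 29 were 139.9-fold higher (78.1 to 280.3), against 53.6-fold for base 31 (46.91 to 61.55) and 13.9-fold for base 27 (5.91 to 42.9). The 29-nt fragment went from 7 reads to 9179, 182-fold higher (88.1 to 452), the largest ratio of the nuclear type among sequences with at least 50 summed reads. After the fragment of bases 2 to 31, the third largest ratio was that of bases 2 to 32, with 5 and 3008 reads, at 83.3-fold (35.7 to 257). As a group, nuclear-type 5′ fragments were 32.8-fold higher in BCP (30.6 to 35.2) and went from 42.6% to 90.6% of the nuclear-type reads.

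The short nuclear-type 5′ fragments of 14 and 16 nt went in opposite directions. The 16-nt fragment, which ends at base 16, had 73 UNM reads and 16551 BCP reads, 31.4-fold higher (24.96 to 40.08). The 14-nt fragment, which lacks its last 2 bases, had 40 UNM reads and 42 BCP reads, 6.88-fold lower (4.35 to 10.87). Over all 5′ starts, ends at base 14 went from 48 reads to 49, 7.07-fold lower (4.65 to 10.75), and ends at base 16 from 79 to 17899, 31.4-fold higher (25.2 to 39.7). Ends at base 15, with 2 and 15 reads, and at base 19, with 2 and 14, had ratios of 1.04 and 0.969 whose intervals hold 1. The 16-nt fragment is in the TCP list and the 14-nt fragment is not.

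Fragments that begin behind the anticodon came mainly from the nuclear type, of which they were a larger part in UNM than in BCP. Fragments that begin at bases 36 to 43, from the last base of the anticodon on, held 51.1% of nuclear-type reads in UNM and 6.99% in BCP. Their share of all listed reads was nevertheless 2.11-fold higher in BCP (1.97 to 2.25), at 0.138% and 0.292%, since the nuclear type as a whole rose further. Most began at base 39 or 40, the first bases of the 3′ strand of the anticodon stem, and most of those ended at base 53, with 72.7% in UNM and 83.3% in BCP. The 15-nt fragment of bases 39 to 53 had 230 reads in UNM, where it was the most abundant nuclear-type sequence, and 4333 in BCP, 2.61-fold higher (2.28 to 2.99). The 14-nt fragment of bases 40 to 53 had 141 and 4478, 4.40-fold higher (3.72 to 5.24). With the 31-nt 5′ fragment ending at base 31 and the 15-nt fragment starting at base 39, the 7 loop bases 32 to 38 lie in neither. Starts at bases 41 to 43 fell from 275 reads to 60. Among them the 13-nt fragment of bases 41 to 53 had 77 UNM reads and 44 BCP reads, 12.6-fold lower, and the 15-nt fragment of bases 41 to 55 had 54 and 0, which is 130.0-fold lower at the same floor and at least 102.1-fold lower by the exact limit. Fragments that reach base 72, the last base before the added CCA, were scarce in the lists, with 2 UNM reads and 175 BCP reads. Of these, 1 and 16 ended beyond base 72. How mapping handled added bases is not known here, so reads with the CCA may have been left out.

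The nuclear type occurred in a pair of versions that differ at both members of a base pair of the anticodon stem. The minor version carries the substitutions C28T and G42A, with the base of the main version first, and bases 28 and 42 face each other in the stem. All 37 sequences that span both bases carried either both substitutions or neither. Those with both had 1 read in UNM and 24 in BCP, and those with neither had 13 and 51. The fragments below show the 2 versions, with bases 28 and 42 in capitals where the fragment reaches them.
Main version, 31 nt, bases 1 to 31: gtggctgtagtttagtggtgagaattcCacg
Minor version, 31 nt, bases 1 to 31: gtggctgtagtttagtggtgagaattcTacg
Main version, 15 nt, bases 39 to 53: cgtGgagacctgggc
Minor version, 15 nt, bases 39 to 53: cgtAgagacctgggc
Minor version, 31 nt, bases 23 to 53: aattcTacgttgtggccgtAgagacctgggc

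The minor version had very different shares on the 2 sides of the anticodon. Among reads that cover base 42, G42A was carried by 161 of 950 in UNM, 16.9% (14.6 to 19.5), and by 3767 of 14622 in BCP, 25.8% (25.1 to 26.5). Among 5′ reads that cover base 28, C28T was carried by 0 of 656 in UNM, 0% (0 to 0.561). In BCP it was carried by 39 of 168727, 0.0231% (0.0164 to 0.0316). The intervals of the 2 sides do not overlap in either library. Reads that cover base 28 but begin after base 3 carried C28T in 15 of 107 cases in UNM, 14.02% (8.06 to 22.1), and in 97 of 4836 in BCP, 2.01% (1.63 to 2.44). The 15-nt fragment of bases 39 to 53 of the minor version had 79 UNM reads and 1293 BCP reads, against 230 and 4333 of the main version, and the 31-nt 5′ fragment of the minor version had 0 and 33 reads, against 206 and 73948. Among the BCP reads that cover base 42 and reach base 72, 101 of 128 were of the minor version, 78.9% (70.8 to 85.6). Among those from base 40 that end at base 53 it was 14.05% (13.12 to 15.02), and among those from base 39 with the same end 23.0% (21.9 to 24.1). In the plastid type, G3A occurred in 52 BCP reads and G15C in 7, and neither in UNM, while TCP lists 10 and 5 sequences with them. Only 1 UNM read and 99 BCP reads of this type began at or after base 40. Whether it has a version of the nuclear kind therefore cannot be told.

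The length profiles of the 2 parents differed accordingly. Reads of at least 30 nt made up 8.20% of plastid-type reads in UNM and 49.0% in BCP, and 34.9% and 72.98% of nuclear-type reads. In the rest of the lists they made up 3.92% and 49.9%. Reads of 18 to 20 nt held 85.4% of the plastid type in UNM and 42.7% in BCP, but only 2.10% and 1.01% of the nuclear type, whose short reads were of at most 17 nt, with 61.1% in UNM and 15.8% in BCP. In the rest of the lists the share of reads of at most 20 nt in all listed reads was 2.37-fold lower in BCP, while that of tRNA-His reads of this length was 2.63-fold higher (2.57 to 2.70).

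Single sequences were counted as higher or lower where the shares differed at least 2-fold with an interval that does not hold 1, from 50 summed reads on. Of the 795 tRNA-His sequences listed for UNM or BCP, 134 reached this minimum and 661 did not, and 82 more are listed for TCP alone. Of the 134, 117 were higher in BCP, 87.3%, against 68.2% of the 1794 sequences of the lists that reached the minimum. There were 6 lower, 4.48%, against 17.2% of all. The median log2 ratio was 2.65 for tRNA-His and 2.01 for all. Of these 134 sequences 48 had 0 reads in UNM, and 2 had 0 reads in BCP, so their direction was fixed by the minimum. With BCP reads drawn down to the total of UNM, 47 of 52 tRNA-His sequences were higher and 3 lower, against 55.9% and 30.3% of all 768. By parent, 42 of 52 plastid-type and 75 of 82 nuclear-type sequences were higher at full depth, and 1 and 5 lower. Among sequences of at least 30 nt, 14 of 15 plastid-type and 19 of 19 nuclear-type ones were higher, and among those of at most 20 nt, 17 of 26 and 29 of 36. No share over all sequences of the same length stands beside these counts, so they are not read as particular to tRNA-His. In the rest of the lists, reads of at least 30 nt were 11.9-fold higher in BCP and those of at most 20 nt 2.37-fold lower. Nested fragments share a tRNA, so the counts of sequences are not counts of independent events.

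In tricellular pollen, tRNA-His made up 437 of the 8633 listed sequences, 5.06%, against 5.10% of the sequences of BCP and 4.29% of those of UNM. The plastid type led in this list, with 260 sequences against 177 of the nuclear type, whereas UNM listed 90 and 145 and BCP 297 and 453. Of the sequences of the UNM list with at least 10 reads, 24 of 24 plastid-type and 22 of 30 nuclear-type ones were listed in TCP, or 100% and 73.3%, against 86.01% in the rest of the lists. Of those of the BCP list with at least 10 reads, 104 of 114 and 109 of 176 were, or 91.2% and 61.9%, against 81.8% in the rest of the lists. All 21 UNM sequences that start at the extra G were listed in TCP, where such fragments ran from 13 to 40 nt. The 20-nt, 35-nt and 36-nt plastid-type fragments and the 31-nt, 33-nt and 34-nt nuclear-type fragments named above were all in the TCP list. Nuclear-type fragments from base 1 were listed in TCP at 16 nt and above only. The most abundant tRNA-His sequence that TCP lacks is the 39-nt plastid-type fragment, but TCP lists no sequence of 39 nt and holds the 40-nt one. Of the fragments that begin at bases 41 to 43, UNM listed 14 sequences, BCP 12 and TCP 2, and that of bases 41 to 55 was among those TCP lacks. The depth behind the TCP list is unknown, so a sequence that it lacks may have been below its reach.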

How the data were processed

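Small RNA of 13 to 40 nt (UNM) or 13 to 41 nt (BCP, TCP) was sequenced per the labels, although the lists hold sequences from 10 nt on, and Bowtie 1.1.2 was among the tools per the submitters' processing notes. For the reference, trimming and mapping, settings were not given in the sources used here. Per the file headers each deposited list gives an anticodon, a sequence and a count. For UNM and BCP the authors deposited raw read counts per distinct sequence, which were used as such. The number deposited for TCP, whose values stay small throughout, was treated as a score of unknown meaning and not used. Total small RNA depth was not used, so shares move together: more of some fragments and less of the others give the same change.

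Sequences labelled GTG were joined by identity and chained by 13-base overlaps, taking the base with most reads at a fork. The chain was numbered from the motif of positions 8 to 14. At most 2 differences were allowed, and parents were named from general knowledge of their acceptor stems, since no tRNA reference was used. Placement and base numbering were settled after the data were seen. Shares have exact Clopper-Pearson 95% intervals and ratios exact conditional binomial 95% intervals, in Python 3.11.15 with scipy 1.17.1. A count of 0 was set to 3 for a ratio. These are PCR reads with no molecular identifiers, so they do not stand for independent molecules. Calls were tested on simulated counts with counting error only, and chaining and matching on a made-up chain without errors or variants. Named sequences are the 5 most abundant per parent in UNM and in BCP, the 3 largest rises and falls per parent and the leading sequence of each family with at least 1% of tRNA-His reads. Members and lists were chosen with earlier results of these data known. The fragments shown for the minor version and for the T in front of base 1, and other ladder members, were chosen after their values were seen. Alternatives were a narrower length range, minimum reads, removal of the leading sequence or of tRNA-Asp, counting of distinct sequences, other minima and folds, and thinning of BCP.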

Additional observations from a re-analysis of the deposited data

How the results depend on the processing

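No paired analysis was possible because each stage has 1 library. For the same reason no replicate could be left out. The shares of tRNA-His, of the plastid type and of the nuclear type were higher in BCP under every setting run, with log2 ratios of 2.82, 2.07 and 3.95. With fragments of 13 to 33 nt only these were 2.74, 1.60 and 4.11. Without tRNA-Asp fragments they were 3.45, 2.71 and 4.58. Counted by distinct sequences in place of reads they were 0.25, 0.30 and 0.22, so the size of the rise rests on reads. Without the leading tRNA-His sequence of BCP they were 2.56 for tRNA-His and 3.50 for the nuclear type, and from 10 reads on the nuclear type stood at 4.03. The share of tRNA-His reads of at least 30 nt was 47.3 percentage points higher in BCP. It was 42.3 higher with 13 to 33 nt and 40.5 higher without the leading sequence. The share of 5′ reads that start at the extra G differed by -38.04 percentage points, by -50.95 with 13 to 33 nt and by -29.52 without the leading sequence. Among plastid-type 5′ reads alone it differed by -2.23 with 13 to 33 nt and by 6.64 without the 20-nt fragment and its 19-nt form, both added after the data were seen. The count of tRNA-His sequences higher in BCP, 117 of 134 (87.3%, against 68.2% of all sequences), was 121 of 309 from 10 summed reads on (39.2% against 30.45%) and 56 of 59 from 200 on (94.9% against 69.8%). It was 47 of 52 with BCP thinned (90.4% against 55.9%) and 80 of 134 at 4-fold (59.7% against 50.6%). Of the UNM list 63.8% of tRNA-His sequences were in TCP, against 54.6% of the rest, and of the BCP list 46.1% against 41.65%. Of those with at least 10 reads in UNM or BCP, 84.1% and 73.04% were. With at least 10 reads in the list's own library, tRNA-His no longer stood above the rest. The shares were then 85.2% against 86.01% for the UNM list and 73.45% against 81.8% for the BCP list.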
